A study of Homo sapiens with 4 samples.

Results

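The genes described here are 10 members of the YAP and TEAD programme, chosen by name: the effectors YAP1, WWTR1 and TEAD1, the target genes CCN1, CCN2, ANKRD1 and AXL, and the feedback genes LATS2, AMOTL1 and AMOTL2. Every probe set that the platform annotation lists for exactly 1 of them was taken, which gave 24 of the 54613 non-control probe sets of the array and all 10 of the genes, out of 19775 genes with a probe set of their own. The RNA came from HCT116, an established human colon cancer line. Cells of both groups were below confluence when serum was taken away, spent 24 h without it, and were then kept for 72 h in 1% oxygen (hypoxia) or in 21% oxygen (normoxia). Each group held 2 arrays, marked experiment A and B in both groups. Whether A and B came from separate cultures, or whether arrays of 1 letter were handled together, is not in the labels, so the spread behind each p-value is that between these arrays and may be technical. Every array shares the serum withdrawal, and all RNA came from a single cell line.

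In hypoxia the secreted matrix proteins CCN1 and CCN2 and the kinase LATS2 had higher transcript signals, each by about 1.4 to 1.6 on the log2 scale at the probe sets that passed the test. The receptor AXL was called lower at 1 of its 2 probe sets, where both hypoxia signals lay in the range of unhybridized controls. YAP1 passed at none of its 3 probe sets and AMOTL1 and AMOTL2 passed at none of their 5, while WWTR1 and TEAD1 each passed at 1 of 3. ANKRD1 lay in the range of unhybridized controls on all 4 arrays. These directions are relative to the other genes of each array, as set out below.

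YAP1 and WWTR1 (whose protein is called TAZ) encode transcriptional coactivators that do not bind DNA themselves and act through the TEAD family of DNA-binding proteins. The Hippo kinases, with LATS1 and LATS2 as the last step, phosphorylate YAP and TAZ and so hold them in the cytoplasm or mark them for breakdown. CCN1, CCN2 and ANKRD1 are the targets most often used to read this programme, and LATS2 and AMOTL2 are targets whose products restrain YAP in turn. In epithelial cells the programme is known to respond to cell density, to tension on the cytoskeleton and to serum factors.

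The values are MAS5 signals on a linear scale, and the trimmed mean of each array was 500.1, which is a sign of scaling to 1 target. Control probe sets nevertheless differed between the groups. The median of 18 hybridization controls was 1726 and 3163 on the normoxia arrays against 6907 and 6091 on the hypoxia arrays, and the 3′ to 5′ ratio of the actin control was 1.26 and 1.28 against 1.66 and 1.77. The part of these differences in the results below was not tested beyond the rescaling given later. The highest of 27 Bacillus control probe sets, used here as the level of unhybridized sets, was 45.7 and 120.5 in normoxia and 305 and 226 in hypoxia for arrays A and B, and 18 of the 24 probe sets lay above it on all 4 arrays. The exposure was visible in the oxygen-sensor gene EGLN3 (log2 difference 3.76 ± 0.33 SE) and in the angiogenic growth factor gene VEGFA (2.10 ± 0.20 SE). Scaled to the hybridization controls, EGLN3 was at 2.39 and still called, while VEGFA was at 0.64 and was not (limma, adjusted p = 0.368); CA9 had no probe set listed for it alone. The epithelial genes EPCAM, CDH1, KRT8, KRT18 and KRT19 had signals from 4913 to 36348, and EPCAM (0.66 ± 0.18 SE), CDH1 (1.02 ± 0.17 SE) and KRT19 (0.76 ± 0.19 SE) were called higher in hypoxia. KRT8 (-0.05 ± 0.18 SE) and KRT18 (0.10 ± 0.21 SE) were not called. Summed with the intestinal markers, the epithelial signal was 74055 to 87778 in normoxia and 107820 to 115320 in hypoxia, while the intestinal markers CDX1, CDX2 and VIL1 had signals from 8.09 to 217. CDX2 was lower on both hypoxia arrays (210 and 217 against 23.0 and 107, -1.60 ± 0.74 SE) but was not called. VIL1 was not called either (0.10 ± 0.84 SE), and CDX1 was not tested. Summed over 5 fibroblast markers, the signal was 727 to 1100.1 in normoxia and 2298 to 2649.7 in hypoxia. COL1A1 made up most of it and rose (545 and 595 against 1752 and 2162, log2 difference 1.73 ± 0.22 SE), while the other 4 lay between 18.1 and 295 and none of the 5 was at 0. The labels name no cells but HCT116, and whether other cells were present was not tested. In bulk RNA, a change in the number of cells of a type and a change in RNA per cell cannot be told apart.

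Of the 24 probe sets, 22 had a mean signal of at least 97.4, the median over all probe sets, and were tested. All differences subtract the normoxia mean of log2(signal + 23.7) from the hypoxia mean, so changes of low signals are understated. A probe set was called where the p of limma, Benjamini-Hochberg adjusted over 27307 probe sets, was under 0.05; 30.8% of all were called, and 8 of the 22. Called higher were 7 of the 22, where 13.7% of all probe sets tested were, and called lower was 1, where 17.1% of all were. Both hypoxia arrays lay above both normoxia arrays in 14 and below them in 2, against 35.4% and 33.1% of all. The median difference was 0.38 over the 22 and 0.05 over all. Probe sets of 1 gene share their transcript and are not independent, and 3 of the 22 reached the filter level in 1 group only (AXL 202685_s_at and AMOTL1 235277_at in normoxia, LATS2 230348_at in hypoxia). Without these 3, limma called 7 higher and 0 lower of 19 (1 lower, AXL 202686_s_at, past an unadjusted p of 0.05), and all of these counts are a description of the set. Read at the probe set with the highest signal, 3 of 9 tested genes were called higher by limma (14.5% of all genes) and 0 lower (21.7% of all genes). Past an unadjusted limma p of 0.05 they were 3 and 1, and the share of all genes past it was not computed. Over those probe sets of all genes the median was -0.03, and over the 9 it was 0.17.

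Where 1 array is left out, its group has a single array, assumed to vary like the other group, whose pair of arrays then gives the whole spread. As in every fit here, limma does not take that spread from each probe set alone. It draws the spread of a probe set toward that of other probe sets of like signal. The median absolute log2 difference between A and B was smaller in normoxia (0.25) than in hypoxia (0.43). Calls over all probe sets numbered 11779 and 11097 without hypoxia A and B, and 4322 and 4485 without normoxia A and B.

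**Figure D1:**
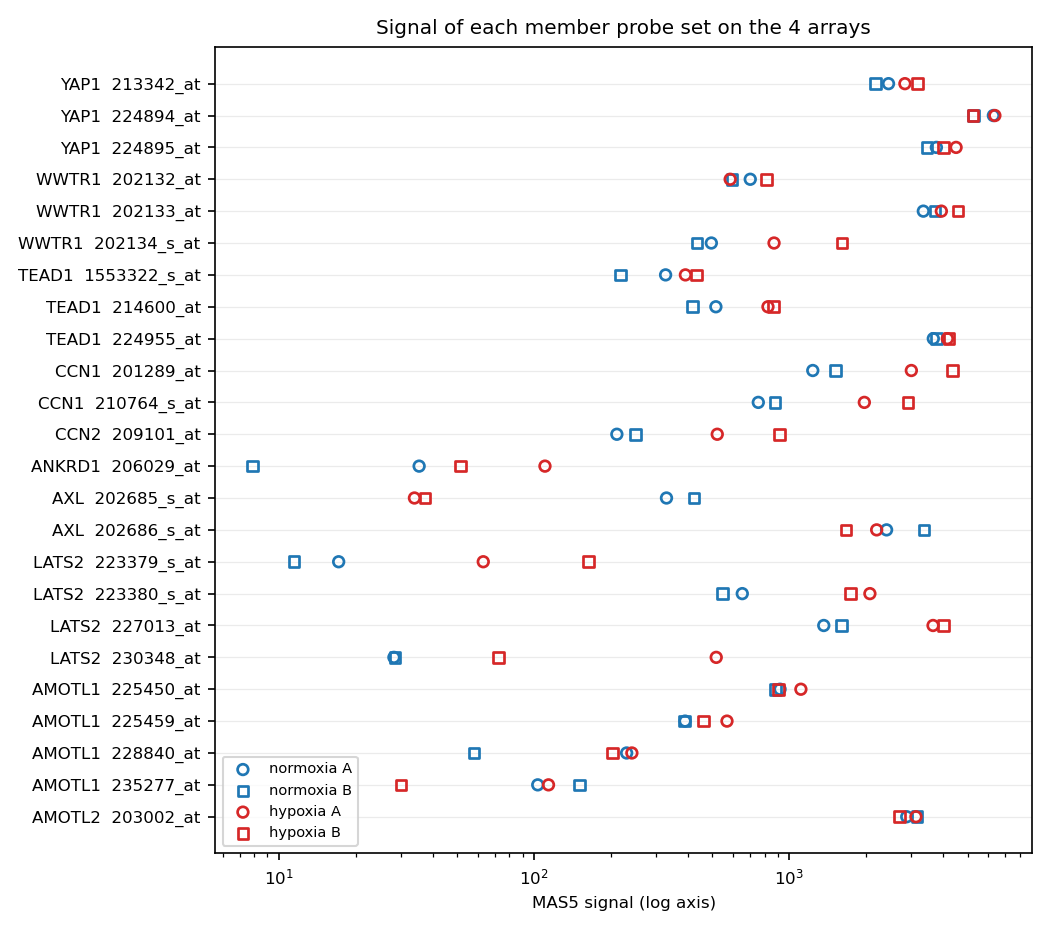
MAS5 signal (log axis) of each of the 24 probe sets on the 2 normoxia arrays (blue) and the 2 hypoxia arrays (red), with circles for A and squares for B. The red points of CCN1, CCN2 and LATS2 lie to the right of the blue ones at every probe set, those of AXL to the left, and those of YAP1 and AMOTL2 beside or among them.

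Among the effectors, YAP1 was not called. Its brightest probe set, 224894_at, read 6315 and 5267 in normoxia and 6401 and 5252.5 in hypoxia. The groups overlapped almost completely, and the log2 difference was 0.01 ± 0.18 SE, with a 95% interval from -0.41 to 0.42. At 224895_at both hypoxia arrays (4509.7 and 4029.6) lay above both normoxia arrays (3774.5 and 3473), by 0.23 ± 0.17 SE (adjusted p = 0.325). At 213342_at the signals were 2450.2 and 2174 in normoxia and 2841 and 3188.5 in hypoxia, again without overlap. That difference of 0.38 ± 0.18 SE was not called (adjusted p = 0.137), but it was called without hypoxia A (0.46, adjusted p = 0.0330), with the spread from the normoxia pair alone. The intervals of the 3 probe sets together reached from -0.41 to 0.78.

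WWTR1 gave unlike readings at its 3 probe sets. At the brightest, 202133_at, signals were 3355 and 3724 in normoxia and 3948 and 4587 in hypoxia, a difference of 0.27 ± 0.17 SE that was not called (adjusted p = 0.277). At 202132_at the groups overlapped (703 and 596 against 587 and 812), with a difference of 0.09 ± 0.27 SE. At 202134_s_at the signal rose from 495 and 435 to 872 and 1607, by 1.31 ± 0.31 SE (adjusted p = 0.0121). Its hypoxia B value was the highest of the 4 and nearly double that of hypoxia A. Leaving out normoxia B ended the call (1.22, adjusted p = 0.0751). The suffix _s_at is given to probe sets whose probes match more than 1 transcript, and the difference between the 3 readings was not tested.

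TEAD1, the DNA-binding partner, had both hypoxia arrays above both normoxia arrays at all 3 probe sets. The brightest, 224955_at, read 3672 and 3769.6 in normoxia and 4169 and 4227 in hypoxia, a small difference of 0.17 ± 0.16 SE that was not called (adjusted p = 0.453). At 214600_at the signal rose from 516 and 417 to 825 and 868, by 0.84 ± 0.26 SE (adjusted p = 0.0374). Leaving out either normoxia array ended the call, at 0.98 without A (adjusted p = 0.172) and 0.69 without B (adjusted p = 0.347). At 1553322_s_at the signals were 327 and 218 against 392 and 434, with a difference of 0.58 ± 0.37 SE (adjusted p = 0.256). The intervals at the 3 probe sets were -0.20 to 0.54, 0.25 to 1.42 and -0.24 to 1.41, and they overlap each other.

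CCN1 and CCN2 encode secreted matricellular proteins that bind integrins. The window before the CCN2 transcript start is shown because it holds the TEAD recognition motif GGAATG 3 times, beginning 169, 104 and 95 bases before the start, and ANKRD1 is set beside it with the motif at 220 and 128 bases before the start. Both are 250 bases long, 5′ to 3′ on the minus strand of GRCh38.p14 (RefSeq), at chr6:131951373-131951622 and chr10:90921088-90921337, with the motif in capitals:
CCN2: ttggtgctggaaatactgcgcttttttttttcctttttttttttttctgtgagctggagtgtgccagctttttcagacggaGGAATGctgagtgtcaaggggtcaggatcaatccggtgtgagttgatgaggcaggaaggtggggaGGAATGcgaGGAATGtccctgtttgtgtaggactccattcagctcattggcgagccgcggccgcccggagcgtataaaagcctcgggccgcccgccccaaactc
ANKRD1: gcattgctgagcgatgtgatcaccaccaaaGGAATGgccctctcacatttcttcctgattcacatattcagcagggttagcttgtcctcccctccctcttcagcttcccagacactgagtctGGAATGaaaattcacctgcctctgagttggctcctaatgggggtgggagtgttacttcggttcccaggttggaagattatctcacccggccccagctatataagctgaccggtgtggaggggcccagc

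Promoter windows of 300 bases (250 before and 50 after the start) were held for 8 of the 10 genes, 11 windows in all; CCN1 and TEAD1 were not among them. GGAATG, searched on both strands, was found in 6 of the 11 windows, 1 each of CCN2, ANKRD1, LATS2, AMOTL2, AXL and YAP1, where 14.0% of 35116 such windows of all genes hold it. The HIF core motif, ACGTG or GCGTG on either strand, was also found in 6 of the 11, against 48.4% of all windows. These were 1 each of LATS2, YAP1, AXL, WWTR1, AMOTL1 and AMOTL2. The AP-1 motif TGANTCA was found in the ANKRD1 window alone (7.71% of all windows) and the CArG box of SRF in none (1.29% of all windows). Of the 6 genes with GGAATG, 2 had transcripts that rose (CCN2 and LATS2), 1 fell at 1 probe set (AXL), 2 were not called (AMOTL2 and YAP1) and 1 could not be followed (ANKRD1). A match is a description of the sequence only.

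Transcripts of both CCN genes rose. At CCN1 201289_at the signals were 1237 and 1515 in normoxia and 3011 and 4368 in hypoxia. The hypoxia mean was 2.68 times the normoxia mean, with a log2 difference of 1.39 ± 0.22 SE (adjusted p = 0.00188). The second CCN1 probe set, 210764_s_at, gave a like result, from 756 and 878 to 1969.8 and 2920.5 (1.53 ± 0.24 SE, adjusted p = 0.00154). In both, hypoxia B was the highest array. Taken by letter, the first probe set differed by 1.27 (A) and 1.51 (B), and the second by 1.35 and 1.71. Leaving out any 1 array kept both calls, with differences between 1.12 and 1.81.

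CCN2, read by the single probe set 209101_at, rose from 211 and 249 to 522 and 916. All 4 values lay above the highest Bacillus control of their array, and the hypoxia mean was 3.13 times the normoxia mean (1.50 ± 0.36 SE, adjusted p = 0.0129). Leaving out normoxia A ended the call (1.39, adjusted p = 0.0727), and with 1 array left out the difference ranged from 1.11 to 1.89. In rank, 89.9% of all tested probe sets had a smaller difference than CCN1 201289_at and 91.6% a smaller one than CCN2.

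ANKRD1, which encodes an ankyrin repeat protein of the nucleus and the sarcomere, could not be followed. Its only probe set, 206029_at, read 35.4 and 7.85 in normoxia and 110.2 and 51.3 in hypoxia, each below the highest Bacillus control of its array. It was under the filter and was not tested, and no fold is given. The higher hypoxia values go with higher unhybridized controls there, whose median was 16.9 and 17.2 in normoxia against 55.5 and 25.7 in hypoxia.

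AXL, a receptor tyrosine kinase of the TAM family, went the other way. At 202685_s_at the signal fell from 330.1 and 423 to 33.9 and 37.3, and it was called lower (adjusted p = 0.00833). It reached the filter level through normoxia alone, and both hypoxia values lay under the highest Bacillus controls. Against that level the transcript was at least 1.42-fold lower, and the fitted log2 difference of -2.75 ± 0.60 SE is no measure of the size. Leaving out either normoxia array ended the call, at -2.91 without A (adjusted p = 0.168) and -2.58 without B (adjusted p = 0.239). At the brighter 202686_s_at, the signals were 2408 and 3370.2 in normoxia and 2202 and 1667 in hypoxia. The groups did not overlap, but the difference of -0.57 ± 0.23 SE was not called (adjusted p = 0.0872). By letter it was -0.13 for A and -1.01 for B, and leaving out hypoxia A brought it past the threshold (-0.76, adjusted p = 0.00931), with the spread from the normoxia pair alone. With the letter as a replicate block, limma called it (-0.57, adjusted p = 0.0206). In that fit most of the spread is taken from other probe sets, so the call says little about the unlike values by letter. Whether the 2 probe sets differ was not tested.

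**Figure D2:**
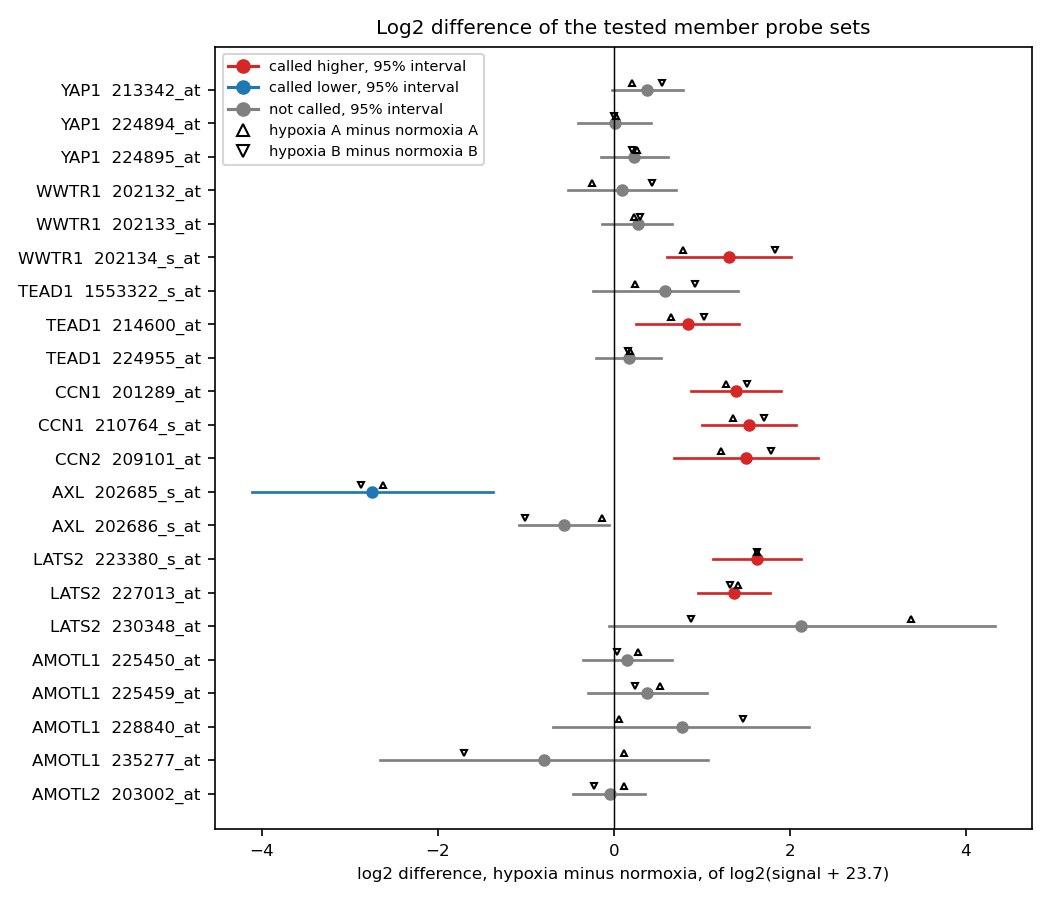
Log2 difference (hypoxia minus normoxia) of the 22 tested probe sets with 95% intervals from limma, red where called higher, blue where called lower and grey where not called, and triangles for the difference within each letter. The 2 CCN1 sets, CCN2 and 2 LATS2 sets lie between 1.36 and 1.63, the YAP1 sets between 0.01 and 0.38, and AXL 202685_s_at at -2.75, all on the scale as deposited. Scaled to the hybridization controls, none of the 22 was called higher, where 110 of all 27307 were.

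LATS2 encodes the kinase that phosphorylates YAP and TAZ, and as a target it closes a feedback loop. The 30 bases that span its transcript start are shown because GGAATG (capitals) begins just after the start, in RefSeq's GRCh38.p14 at chr13:21061558-21061587 on the minus strand. The AMOTL2 window, whose transcript was not called, is set beside it with the same motif in reverse orientation (CATTCC, capitals) 69 bases before the start of 1 of its 2 listed windows, in 250 bases at chr3:134374448-134374697 on the minus strand:
LATS2: tgacgcccgtGGAATGccaacaatgtagcg
AMOTL2: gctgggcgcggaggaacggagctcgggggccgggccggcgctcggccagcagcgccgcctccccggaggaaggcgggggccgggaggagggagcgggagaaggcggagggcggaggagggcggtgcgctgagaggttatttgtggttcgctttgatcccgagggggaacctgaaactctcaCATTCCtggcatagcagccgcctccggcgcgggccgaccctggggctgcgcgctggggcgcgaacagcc

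The transcript of LATS2 rose at both of its bright probe sets. At 227013_at the signals were 1366 and 1599 in normoxia and 3663 and 4015 in hypoxia, a difference of 1.36 ± 0.18 SE (adjusted p = 0.000768). At 223380_s_at they were 654 and 547 against 2071 and 1743, with 1.63 ± 0.22 SE (adjusted p = 0.000834). The hypoxia means were 2.59 and 3.17 times the normoxia means. The A and B arrays gave 1.41 and 1.32 at the first and 1.63 each at the second, and both calls held without any 1 array. Among the called member probe sets these had the closest match between the letters, which the labels do not say pair the arrays. At the dimmer LATS2 230348_at, which was not called, the letters gave 3.38 (A) and 0.88 (B).

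The 2 dimmer LATS2 probe sets also had both hypoxia arrays above both normoxia arrays, with little weight. At 230348_at the signals were 28.2 and 28.5 in normoxia and 517 and 72.6 in hypoxia. Only hypoxia A exceeded its highest Bacillus control, so no fold is given. The difference of 2.13 ± 0.97 SE was not called (adjusted p = 0.126) and rests on that array: it fell to 0.89 with that array left out, and leaving out hypoxia B gave 3.38 (adjusted p = 0.00417), which sets a single array against a normoxia pair in the background range. At 223379_s_at, which was under the filter, the signals of 17.1 and 11.4 against 63.1 and 163 all lay below the highest Bacillus controls.

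AMOTL1 and AMOTL2 encode angiomotin-like proteins of cell junctions that bind YAP and keep it out of the nucleus. AMOTL2 203002_at read 2889 and 3168 in normoxia and 3139 and 2701 in hypoxia. The groups overlapped, and the difference of -0.05 ± 0.18 SE had an interval from -0.46 to 0.35. None of the 4 AMOTL1 probe sets was called. At the brightest, 225450_at, the signals were 920.3 and 882 against 1110.8 and 908, with a difference of 0.15 ± 0.22 SE and an interval from -0.35 to 0.66. At 225459_at they were 390.3 and 387 against 569.97 and 460.2 (0.38 ± 0.30 SE, adjusted p = 0.370), without overlap. The dimmer 228840_at and 235277_at had overlapping groups and opposite signs (0.77 ± 0.65 SE and -0.79 ± 0.83 SE), and both hypoxia values of each lay under the highest Bacillus controls.

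Of 16 further target genes of YAP and TEAD, 15 had a probe set of their own (NUAK2 had none) and 11 were tested at the probe set with the highest signal. Of these 4 were called higher, where 14.5% of all genes were, and 0 were called lower by limma; the median was 0.16 against -0.03 over all genes. NT5E, the ecto-5′-nucleotidase CD73, rose from 1204 and 835 to 2755 and 6546 (2.06 ± 0.36 SE, adjusted p = 0.00286). Its value on hypoxia B was more than double that on hypoxia A, and the difference without 1 array ranged from 1.44 to 2.68. F3, the tissue factor gene, rose from 1474 and 1223.5 to 4016 and 4748 (1.68 ± 0.19 SE), and ASAP1, an Arf GTPase-activating protein gene, rose from 2485.5 and 2759 to 6411 and 8200.3 (1.46 ± 0.19 SE). Neither call was lost by leaving out any 1 array. The stress gene GADD45A rose from 7378 and 8269 to 10718 and 12964 (0.59 ± 0.18 SE, adjusted p = 0.0337), which leaving out normoxia A (0.51, adjusted p = 0.124) or hypoxia B (0.46, adjusted p = 0.0710) took below the threshold. Without a call at that probe set were MYOF, IGFBP3, CRIM1, FJX1, DOCK5, PTPN14 and TGFB2, of which 1, PTPN14, was called higher at another (205503_at, 0.93, adjusted p = 0.0270). PTPN14 was at 0.16 at its brightest probe set, 0.00 at 242321_at and -0.08 at 244533_at. The share of all genes called at another probe set was not computed. Past an unadjusted limma p of 0.05 were 5 higher and 0 lower, and the share of all genes past it was not computed. The fifth was IGFBP3, which reached the filter level through hypoxia alone and read 8.03 and 19.7 against 116.6 and 309.9, with only hypoxia B above its highest Bacillus control.

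Of 29 Hippo regulators and TEAD family genes, 26 were tested, with 5 called higher (14.5% of all genes), 3 lower (21.7%) and 18 not called, at a median of 0.36. In the kinase core, STK3 (the kinase MST2) rose from 2306 and 2347.5 to 4293 and 5826 (1.10 ± 0.19 SE, adjusted p = 0.00301) and kept its call without any 1 array, though not without the variance trend (adjusted p = 0.0669). Upstream, FRMD6, a FERM domain gene, rose from 859 and 1035 to 2147 and 3472.5 (1.51 ± 0.25 SE, adjusted p = 0.00225), with the same exception (adjusted p = 0.0581). The cadherin gene FAT4 read 77.6 and 23.6 against 229.6 and 355 and was called higher (2.16 ± 0.68 SE, adjusted p = 0.0398). It reached the filter level through hypoxia alone, and normoxia B and hypoxia A lay under their highest Bacillus controls, so the size is not settled. Leaving out 1 array ended the call in 3 of 4 cases: normoxia A gave 2.71 (adjusted p = 0.0587), normoxia B 1.61 (0.171) and hypoxia B 1.87 (0.101). TEAD2, another DNA-binding TEAD gene, fell from 775 and 715 to 202 and 243 (-1.65 ± 0.31 SE, adjusted p = 0.00409), which leaving out normoxia A took out of the calls (-1.59, adjusted p = 0.0650). Its other tested probe sets, 238322_s_at and 238323_at, had differences of -0.20 and -1.48 and were not called.

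The other 4 regulators that were called are named after their values were seen. SAV1, the scaffold of the kinase core, had a difference of 0.82 ± 0.22 SE, and VGLL4, a competitor of YAP for TEAD, one of 0.84 ± 0.19 SE. The kinase gene STK4 (MST1) and the polarity gene SCRIB each had a difference of -0.75 ± 0.23 SE. Leaving out normoxia A ended the calls of VGLL4 (0.90, adjusted p = 0.100), STK4 (-1.01, 0.0884) and SCRIB (-0.68, 0.330). Leaving out normoxia B ended those of SAV1 (0.51, adjusted p = 0.183), VGLL4 (0.78, 0.159), STK4 (-0.50, 0.461) and SCRIB (-0.83, 0.208). The number of regulators called higher was thus 3 without normoxia A and 2 without normoxia B, and the number lower 0 and 1. Of the 18 regulators not called at the brightest probe set, 5 were called at another, and the share of all genes for this was not computed. Higher were MAP4K4 (0.98 at 206571_s_at), WWC1 (2.11 at 216074_x_at, 0.37 at the brightest) and WWC3 (1.64). MAP4K4 was lower, without a call, at its brightest probe set (-0.46), at 222547_at (-0.85) and at 222548_s_at (-0.44). Called lower were MOB1A (-0.56 and -0.84) and AJUBA (-0.87). LATS1, the paralog of LATS2, was not called (795 and 709.9 against 1302 and 959, 0.56 ± 0.24 SE, adjusted p = 0.110), and neither were NF2 (0.06), TEAD3 (-0.53) or TEAD4 (-0.38).

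**Figure D3:**
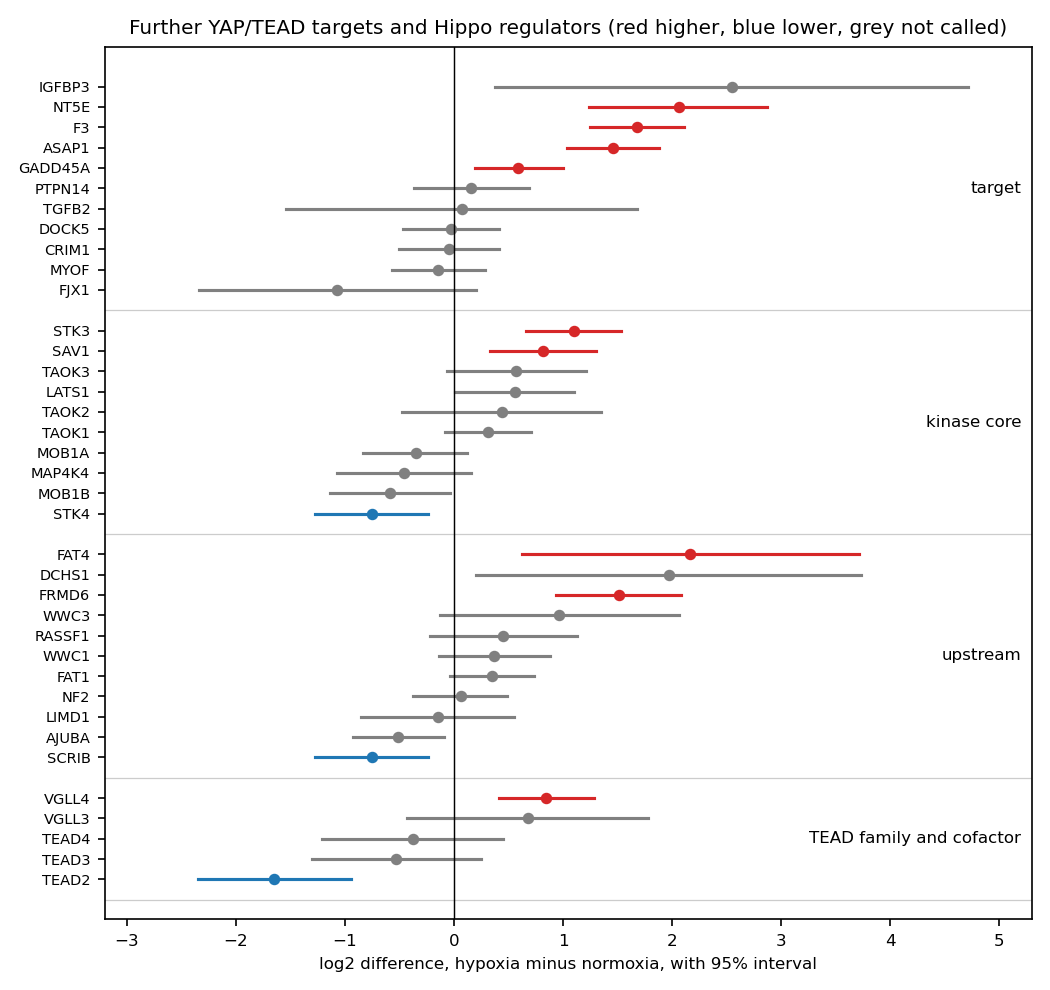
Log2 difference (hypoxia minus normoxia) with 95% intervals of the 11 further target genes and the 26 regulators tested, each at its probe set with the highest signal, ordered by size within the roles named at the right. Red marks genes called higher (4 targets and 5 regulators, of which none was when scaled to the hybridization controls), blue those called lower (3 regulators) and grey those not called.

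How the arrays are brought to 1 scale decides the absolute direction of these changes. Scaled to the hybridization controls, the median of all tested probe sets moved from 0.05 to -1.30. Of the 22 probe sets, limma then called 0 higher and 3 lower, where 110 of all 27307 were called higher and 10146 lower. Past an unadjusted limma p of 0.05 were 0 and 6 of the 22, and the share of all past it was not computed. CCN1 201289_at was at -0.05, CCN2 at 0.13 and the bright LATS2 probe sets at -0.08 and 0.20 on that scale. Relative to the median probe set they stood at 1.25, 1.43, 1.21 and 1.50, where the values as deposited gave 1.34, 1.45, 1.31 and 1.58. AXL 202685_s_at stood at -2.53 against -2.80. This scaling, like that to the 75th percentile, multiplies each array by 1 factor and so moves all log2 differences by nearly the same amount. The likeness was therefore fixed in advance and is no test of the directions. Scaled to the 75th percentile, where the median was 0.19, and under quantile normalization, where it was 0, 7 were called higher and 1 lower as before. The directions given for CCN1, CCN2 and LATS2 are thus stated only relative to the other genes of the array. So is that of AXL, which was called only at 202685_s_at, a probe set that reached the filter level through normoxia alone. The deposited values cannot tell whether the amount of these transcripts per cell changed.

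**Figure D4:**
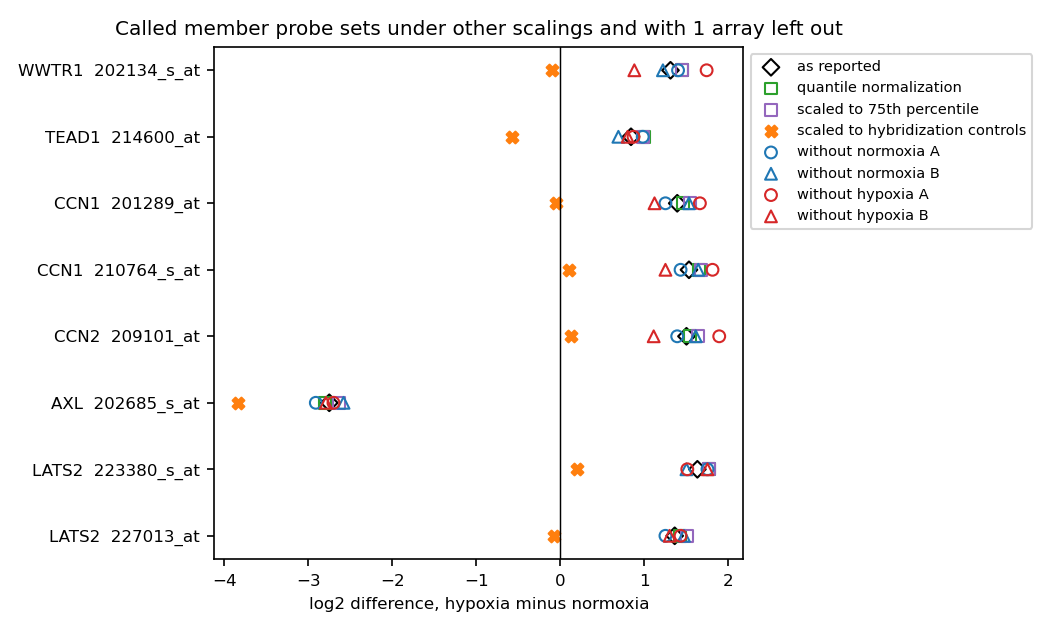
Log2 difference of the 8 called probe sets as reported (diamonds), under 2 other normalizations (squares), scaled to the hybridization controls (crosses) and with 1 array left out (circles and triangles, blue for normoxia and red for hypoxia). Crosses lie near 0 or below it for every probe set called higher, and all other points of each probe set lie on the same side of 0.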

How the data were processed

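Total RNA (6 µg) from 4 samples was labelled with biotin, per the labels' protocols. The authors deposited intensities, 1 MAS5 signal per probe set on a linear scale, per the submitters' processing notes; no version is named there, and detection calls were not used here. Of 54675 probe sets, 62 were controls, and 41091 were listed for 1 gene, 1801 for several and 11721 for none in the platform annotation, with symbols updated through RefSeq (41037 matched). Signals were taken as log2(signal + 23.7), the 25th percentile of all values, with no further normalization. Probe sets with a mean of at least 97.4 (27307) were compared by group with limma 3.58.1 in R 4.3.3 (lmFit, eBayes with an intensity trend, two-sided) and Benjamini-Hochberg adjustment. Of all tested, 8409 (30.8%) were called. Figures used matplotlib 3.10.9.

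The members, lists and settings were chosen with earlier results of these data known. Every member is named at each probe set. Of each further list the text names up to 4 called genes with the largest change, and other names were chosen after their values were seen. Simulated data with 200 changed probe sets of 27307 gave calls for 5.97% of 2-fold, 41.8% of 4-fold and 72.7% of 16-fold changes, with 8 false calls, and 95.0% of intervals held the true value. In the data 30.8% of probe sets were called. The share called depends on how many probe sets change, so these percentages do not carry over to the data. A first requirement of 80% at 16-fold was not met and was replaced by one on these intervals. The number of arrays limits the precision. Alternatives were other pseudocounts, filters, scalings and variance models, 1 probe set per gene, a replicate block and leaving out each array. Fold bounds compare log2 means with the highest Bacillus control of each array.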

Additional observations from a re-analysis of the deposited data

How the results depend on the processing

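Of 520 recomputed probe set values, 428 kept their direction and their side of the threshold. Another 27 changed sign and were counted so whether or not a call was also lost or gained. The others kept their direction, and of them 60 lost a call and 5 gained one. Causes were not tested. Over all probe sets 8409 calls became 3825 without the variance trend, 4725 at adjusted p under 0.01 and 4803 with 1 probe set per gene, and lay between 4322 and 11779 with 1 array left out. The 7 member probe sets called higher became 0 when scaled to the hybridization controls, 3 without the trend, 4 at 0.01 and 3 with 1 probe set per gene (5 to 8 with 1 array left out). The 1 called lower became 3 when scaled to those controls, 2 with the replicate block, and 0 with the stricter filter or 1 probe set per gene (0 to 2). The 4 further targets called higher became 0 when scaled to the controls (3 to 5), and the 0 lower became 2 there and 1 under quantile normalization (0 to 1). The 5 regulators called higher became 0 when scaled to the controls, 1 without the trend and 2 at 0.01 (2 to 7). The 3 lower became 9 when scaled to the controls, 5 with the replicate block, and 1 under quantile normalization, the 75th percentile, no trend or 0.01 (0 to 5). The labels mark the letters as experiments without saying what arrays of 1 letter share, and same-letter deviations correlated at 0.06. With the block in limma, AXL 202686_s_at passed the threshold (-0.57, adjusted p = 0.0206), with a spread taken mostly from other probe sets. Apart from the members and the regulators called lower, given above, the block changed no count by over 1.5 times.

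Scaling to the hybridization controls left 110 of all 27307 probe sets called higher and 10146 lower, and the counts on that scale above are to be read beside these. It turned the sign of YAP1 (-1.07, -1.44 and -1.22), WWTR1 (-1.32, -1.18 and -0.10), TEAD1 (-0.79, -0.57 and -1.28), CCN1 201289_at (-0.05), LATS2 227013_at (-0.08), AMOTL1 (-1.27, -1.01 and -0.53), GADD45A (-0.86), STK3 (-0.35), SAV1 (-0.64) and VGLL4 (-0.59). Differences near 0 also turned: YAP1 224894_at under quantile normalization (-0.09) and with 1 array left out (-0.13 to 0.15). With 1 array left out, so did WWTR1 202132_at (-0.14 to 0.32) and AMOTL2 (-0.16 to 0.05), which was at 0.09 at the 75th percentile. The larger difference of AMOTL1 228840_at, 0.77 on all arrays, lay between -0.05 and 1.58 with 1 array left out and turned without normoxia B. Without the variance trend, 4 member calls were lost: CCN1 201289_at (adjusted p = 0.0561), CCN2 (0.0644), WWTR1 202134_s_at (0.0868) and TEAD1 214600_at (0.0890). So were those of NT5E (0.0693), GADD45A (0.165), STK3 (0.0669), FRMD6 (0.0581), FAT4 (0.0582), SAV1 (0.137), VGLL4 (0.0831), STK4 (0.139) and SCRIB (0.124).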
